A study of Mus musculus with 2 samples.

Results

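The genes described here are the Wnt pathway genes of the mouse: the Wnt ligands, the R-spondins with their receptors Lgr4 and Lgr5, the Frizzled receptors and co-receptors, the secreted antagonists, the cytoplasmic transducers, the TCF/LEF factors, and feedback or target genes. They were chosen by a rule on the symbol, which did not use their values, but with earlier results of these data known. Each was represented by the probe set, among those naming a single gene, with the highest mean log2(signal + 16) over both arrays. Of 18193 genes measured, 66 met the rule, of which 47 passed a filter on low values that 11960 genes passed. Tcf7 and T, 2 further genes of the rule, were not analysed here. The symbol rule also took in Fzd10os, a transcript named for the strand opposite Fzd10 and not a receptor, which lay below the filter with signals of 30.2 at day 15 and 37.1 in undifferentiated cells.

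The samples were PGK12.1 cells differentiated for 15 days as embryoid bodies and undifferentiated PGK12.1 cells (day 0), each measured on 1 Affymetrix expression array. PGK12.1 is a female mouse embryonic stem cell line, obtained by mating a 129 female with a (129 X PGK)F1 male, and both samples come from this single line. Undifferentiated cells were kept with leukemia inhibitory factor on fibroblast feeders, and the feeders were depleted on gelatin-coated dishes first. The study was designed to follow X-linked expression as female cells pass to a single active X, and 0 of the 66 Wnt genes lie on the X.

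Wnt proteins are lipid-modified ligands that bind Frizzled receptors. With the co-receptors Lrp5 or Lrp6, this stops the destruction complex of Axin, Apc and Gsk3b from degrading beta-catenin (Ctnnb1), which then acts with TCF/LEF factors on target genes, while Ror and Ryk receptors carry other branches. In mouse embryonic stem cells the pathway is known for countering Tcf7l1, a repressor of self-renewal genes, and in the embryo for the formation of the primitive streak and mesoderm.

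With 1 array per condition there was no replicate error, no test and no p-value, so each difference is described by its size on this pair of arrays. Signals are linear intensities that the authors had scaled to a common level, and each log2 difference below is log2(signal + 16) at day 15 minus log2(signal + 16) in undifferentiated cells. A gene was called at least 2-fold higher or lower from that difference, while the folds printed are plain signal ratios. The highest of 15 bacterial control probe sets without target RNA read 35.6, so where the dimmer signal lay under 35.6 it was replaced by 35.6 and the fold is a lower bound, written as at least N-fold. Where both signals lay under 35.6 no fold is given. Probe sets differ in brightness for the same RNA level, so signals are compared within a gene. Sums over a marker list weigh its brightest probe sets most.

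Pluripotent stem cell markers were lower at day 15 and fibroblast markers were higher, as 2 fixed marker lists show. All 10 pluripotency markers passed the filter, and 6 of them were called lower, against 8.41% of all genes above the filter. Their summed signals were 32371 at day 15 and 57578 in undifferentiated cells. Dppa5a, nearly level at 11467 at day 15 and 14474 in undifferentiated cells, weighs heavily in these sums. Pou5f1, which encodes OCT4, read 2932 at day 15 and 7838 in undifferentiated cells, so these transcripts remained well above the controls at day 15. Of 10 fibroblast and mesenchyme markers, 9 were at least 2-fold higher, against 16.5% of all genes above the filter. Summed signals of the 10 were 45491 at day 15 and 3417 in undifferentiated cells. In undifferentiated cells Vim alone contributed 3030 of that sum. Of the fibroblast markers Col1a1, Lum, Postn, Pdgfrb and Twist1 lay under 35.6 in undifferentiated cells. Among cardiac markers, 5 of 9 above the filter passed 2-fold upward (Actc1, Gata4, Hand2, Tbx20 and Tnnt2), against 16.5% of all genes. Nkx2-5, Myh6, Myh7 and Myl2 lay within 2-fold, and Tbx5 under 35.6 on both arrays. Among visceral endoderm markers 4 of 7 passed it (Afp, Ttr, Gata6 and again Gata4), against 16.5% of all genes. Foxa2, Sox17 and Amn lay within 2-fold by the call, and Hnf4a, Apoa1 and Apoa4 below the filter. Of 8 neural markers 3 were higher and 3 lower, against 16.5% and 8.41% of all genes. Of 6 primitive streak and early mesoderm markers above the filter 2 were higher (Foxf1 and Pdgfra), against 16.5% of all genes. Pdgfra exceeded 35.6 at day 15 only (286.8 and 4.3). Eomes, Evx1, Kdr and Msgn1 lay within 2-fold by the call, and Mesp1, Mixl1 and Tbx6 below the filter. The part of these cell types in the Wnt gene differences was not tested, and in such bulk RNA more cells of a type and more RNA per cell cannot be told apart.

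Wnt pathway genes were more often higher than lower at day 15. Of the 47 above the filter, 17 were at least 2-fold higher, against 16.5% of all genes above the filter, and 2 were at least 2-fold lower, against 8.41% of all genes. The 17 were 36.2% of the 47 and the 2 were 4.26%. Their median log2 difference was 0.62, beside 0.00052 over all 11960 genes. Among the 17, 5 had a signal over 35.6 at day 15 only (Wnt5a, Wnt9a, Rspo3, Dkk2 and Frzb), and such genes could pass the filter only through day 15. Without the filter, 21 of the 66 were at least 2-fold higher, against 12.8% of all 18193 genes, and 2 were lower, against 7.56%. The balance depended on scaling. Quantile normalization gave 14 higher and 4 lower, with 13.8% and 11.4% of all genes called. Scaling on the bacterial hybridization controls gave 11 higher and 4 lower, with 11.3% and 18.8% of all genes called. These scalings moved the median of all genes above the filter to -0.13 and -0.36.

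**Figure D1:**
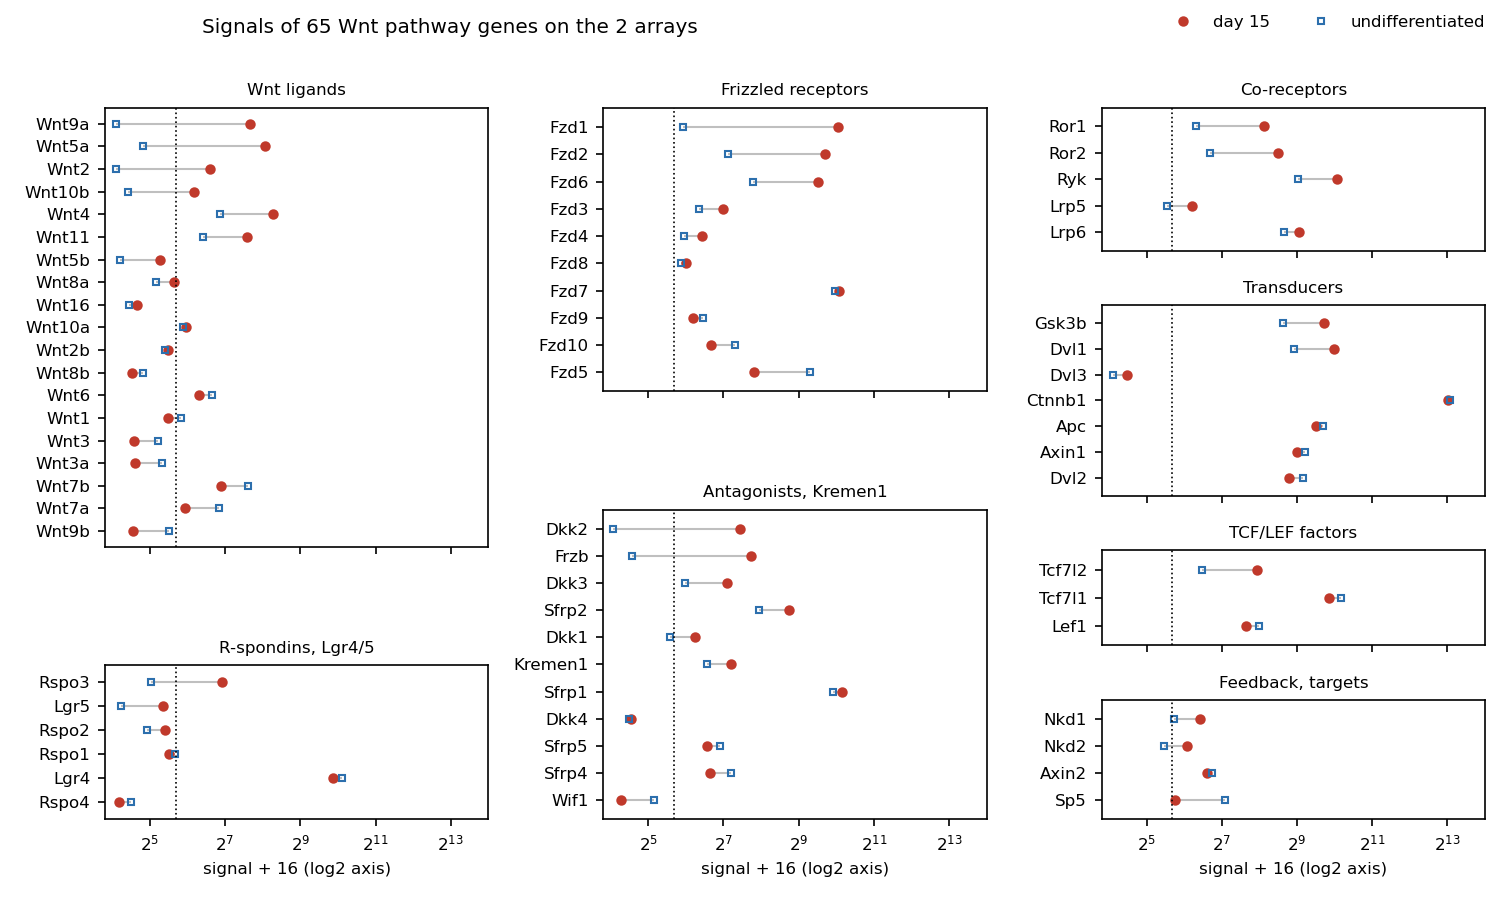
Signals of 65 Wnt pathway genes (Fzd10os is left out) at day 15 (filled circles) and in undifferentiated cells (open squares), 1 array each, on a log2 axis of signal + 16, ordered within each role by the log2 difference. The dotted line marks the bacterial controls without target (35.6), and the widest gaps are those of Fzd1, Wnt9a, Dkk2, Wnt5a and Frzb, with the day 15 signal on the right.

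The ligands Wnt9a, Wnt5a, Wnt4 and Wnt11 passed 2-fold on the higher side, 50% of the 8 above the filter, against 16.5% of all genes. On the lower side 0 passed it, which with 8 genes cannot be told from the 8.41% of all genes. Of 19 ligands measured 8 passed the filter, with a median log2 difference of 0.61, and 0.077 over all 19. Wnt9a and Wnt5a had a signal over 35.6 at day 15 only and could pass the filter only through day 15. Wnt5a, which signals through Ror2 and the branches that do not need beta-catenin, read 253.4 at day 15 and about 12 in undifferentiated cells, at least 7.12-fold higher. Its other 3 probe sets lay below the filter and read at day 15 and in undifferentiated cells 106.8 and 2.90, 117.1 and 3.60, and 19.5 and 3.50. The last of these lay under 35.6 on both arrays, so the direction is read from the other 3 Wnt5a probe sets. With the mean over probe sets Wnt5a fell below the filter (log2 difference 2.40). Wnt11, a ligand of the same branch with roles in gastrulation and heart development, read 174.3 at day 15 and 69.7 in undifferentiated cells (2.50-fold higher). The Wnt11 call was lost with quantile normalization (log2 difference 0.84), hybridization control scaling (0.80) and a pseudocount of 64 (0.83). Wnt4, a ligand of kidney and gonad development, read 295.9 and 101.4 (2.92-fold higher), and its second probe set 103.9 and 26.9. Wnt4 is thus the ligand whose call rests on more than 1 probe set above the filter.

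Wnt9a, a ligand of joint and skeletal development, had probe sets that disagreed. The one representing it read 188.2 at day 15 and 1.10 in undifferentiated cells, at least 5.29-fold higher. The other read 22.5 and 29.4, under the controls on both arrays, and the Wnt9a call therefore rests on a single probe set. With a pseudocount of 1 this second probe set represents the gene, at a log2 difference of -0.37.

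The ligands Wnt7b, Wnt7a, Wnt6 and Wnt10a passed the filter within 2-fold by the call. Wnt7b read 103.8 at day 15 and 180.7 in undifferentiated cells, Wnt7a 45.6 and 99.2, and Wnt6 62.8 and 84.3. The Wnt7a ratio was 2.18-fold lower, but its log2(signal + 16) difference of -0.90 fell short of the call. Both Wnt7 ligands were called at least 2-fold lower with quantile normalization and with scaling on the hybridization controls. Wnt10a (45.8 and 42.6) turned from a log2 difference of 0.077 to below 0 with those scalings.

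The 11 ligands below the filter included 2 that exceeded 35.6 at day 15 alone. Wnt2, a ligand of heart and lung mesoderm, read 81.1 at day 15 and 1.20 in undifferentiated cells (at least 2.28-fold higher). Wnt10b read 56.8 and 5.50 (at least 1.60-fold higher). Wnt1 exceeded the controls in undifferentiated cells alone, at 28.4 at day 15 and 40.7 in undifferentiated cells. The other 8, among them Wnt3 and Wnt3a, the ligands of the primitive streak and tail bud in the mouse, lay under 35.6 on both arrays. Wnt3 read 8.10 at day 15 and 21.3 in undifferentiated cells, and Wnt3a 8.50 and 23.7, so no level of either could be told from the controls.

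R-spondins enhance Wnt signalling by binding Lgr receptors and clearing the ubiquitin ligases Znrf3 and Rnf43, which remove Frizzled from the membrane. Rspo3 was the R-spondin above the filter, at 105.6 at day 15 and 16.5 in undifferentiated cells (at least 2.97-fold higher), while its other probe set read 2.90 and 2.20 and the mean over both fell short of 2-fold (log2 difference 0.98). Rspo1, Rspo2 and Rspo4 lay under 35.6 on both arrays, as did Lgr5, a receptor known from intestinal stem cells, at 24.6 and 2.70. The R-spondin receptor above the filter was Lgr4, which read 925.5 at day 15 and 1088.2 in undifferentiated cells (log2 difference -0.23).

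All 10 Frizzled receptor genes passed the filter. Fzd1, Fzd2 and Fzd6 were higher at day 15 and Fzd5 was lower, each past 2-fold. These are 30% and 10% of the 10, against 16.5% and 8.41% of all genes, so the lower share is near that of all genes. Fzd1 had the largest log2 difference of the 66 genes with the pseudocount of 16 (4.13), a size that 1.05% of all genes above the filter reached. It read 1051.7 at day 15 and 45.0 in undifferentiated cells (23.4-fold higher), and its second probe set read 154.1 and 22.6. Both Fzd1 probe sets lay past 2-fold, although their log2 differences of 4.13 and 2.14 differ in size. Fzd2 read 824.2 and 123.5 (6.67-fold higher), and its 3 probe sets had log2 differences between 2.46 and 2.99. Fzd6, a receptor of planar cell polarity in mouse skin, read 710.6 and 206.3 (3.44-fold higher), while another probe set above the filter gave 139.0 and 71.6, a log2 difference of 0.82. The remaining Fzd6 probe set, below the filter, ran the other way, at 5.20 at day 15 and 42.3 in undifferentiated cells, and the mean over the 3 was 0.36.

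Fzd5, a receptor needed for yolk sac blood vessels in the mouse, read 210.9 at day 15 and 616.3 in undifferentiated cells, 2.92-fold lower. Its second probe set read 59.4 and 306.4, with a log2 difference of -2.10 beside -1.48 for the first. A difference at or below -1.48 was found for 2.39% of all genes above the filter. Fzd7, a Frizzled gene of stem cells, was nearly level at 1065.9 at day 15 and 981.1 in undifferentiated cells, with a log2 difference of 0.12 that turned to -0.27 with scaling on the hybridization controls. Fzd4 read 70.5 and 45.4, but its second probe set read 81.3 and 23.4 (log2 difference 1.30). The probe sets of Fzd3 above the filter lay on both sides of 0, between -0.23 and 0.64, and its signals were 111.4 at day 15 and 65.6 in undifferentiated cells. Fzd8, Fzd9 and Fzd10 lay within 2-fold, with log2 differences of 0.15, -0.26 and -0.63.

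Among the 5 co-receptor genes, Ror1, Ror2 and Ryk were at least 2-fold higher, and Lrp5 and Lrp6 lay within 2-fold. The higher share was 60%, against 16.5% of all genes, but the Ror1 and Ryk calls were lost in some alternatives. On the lower side 0 were called, which with 5 genes cannot be told from the 8.41% of all genes. Ror2, a receptor tyrosine kinase family member that binds Wnt5a, read 348.0 at day 15 and 87.9 in undifferentiated cells (3.96-fold higher). Its relative Ror1 read 263.4 and 63.7 (4.14-fold higher). The remaining Ror1 and Ror2 probe sets lay below the filter, with no signal over 19.7, so each call rests on 1 probe set. Ryk, an atypical receptor tyrosine kinase that binds Wnts, read 1061.6 and 501.4 (2.12-fold higher). Its other probe sets read 768.1 and 417.6, and 58.1 and 46.5, with log2 differences of 0.85 and 0.25 that fell short of the call. The Ryk call was lost with hybridization control scaling (log2 difference 0.67), a pseudocount of 64 (0.99), the mean over probe sets (0.72) and suffixes a, s and x left out (0.25). The Ror1 call was lost with the mean over probe sets (0.66). Lrp6 read 510.9 at day 15 and 388.7 in undifferentiated cells, with log2 differences of 0.38 and 0.41 for its probe sets, and Lrp5 read 57.5 and 31.1. The 5 co-receptor genes were each above 0 with the deposited scaling and also with scaling on the hybridization controls, where Lrp6 was at 0.0035.

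**Figure D2:**
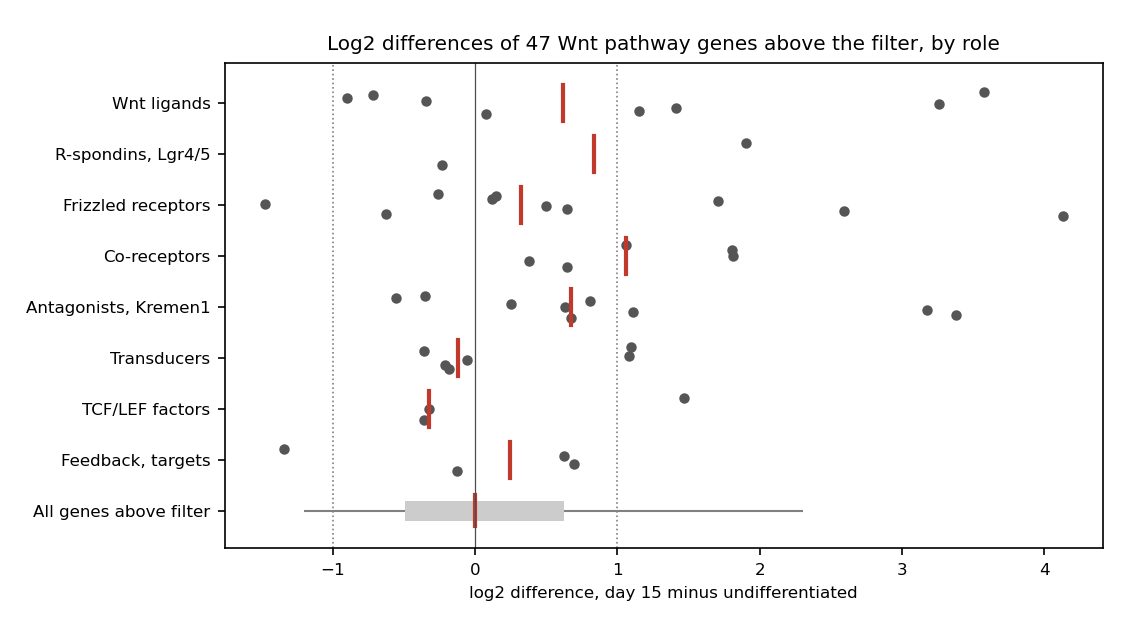
Log2 differences of log2(signal + 16), day 15 minus undifferentiated, of the 47 Wnt pathway genes above the filter, 1 point per gene, with the median of each role as a red bar. The bottom row shows all 11960 genes above the filter (box, 25th to 75th percentile; line, 5th to 95th), dotted lines mark 2-fold, and the co-receptors have the highest median (1.06) with all 5 points above 0.

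Of the secreted antagonists above the filter, 37.5% were at least 2-fold higher, against 16.5% of all genes. On the lower side 0 were called, which with 8 genes cannot be told from the 8.41% of all genes. Of 10 antagonist genes measured 8 passed the filter, and Dkk2, Frzb and Dkk3 were at least 2-fold higher. Frzb, a secreted Frizzled-related protein that binds Wnts, read 198.7 at day 15 and 7.80 in undifferentiated cells (at least 5.58-fold higher), and its second probe set 76.8 and 11.3. Dkk2, which binds Lrp5 and Lrp6, read 156.6 and 0.60 (at least 4.40-fold higher) on its only probe set. Dkk3, a divergent member of the family, read 120.7 and 47.4 (2.55-fold higher), and its second probe set 126.0 and 22.2. Dkk3 lay past 2-fold on both of its probe sets, but its call was lost with quantile normalization (log2 difference 0.85), hybridization control scaling (0.77) and a pseudocount of 64 (0.73). Dkk2 fell below the filter with both of those scalings and with a pseudocount of 1, and Frzb was higher on both of its probe sets. Dkk1, an antagonist needed for head formation in the mouse, read 59.8 at day 15 and 31.5 in undifferentiated cells (at least 1.68-fold higher), and Kremen1, a receptor through which Dkk proteins remove Lrp6, read 130.8 and 78.9.

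The remaining Frizzled-related proteins showed no call in either direction. Sfrp1 was represented by a probe set reading 1131.3 at day 15 and 946.0 in undifferentiated cells, a log2 difference of 0.25. Its other 4 probe sets gave larger differences, between 0.69 and 1.06, and 2 of them passed 2-fold, at 1264.2 and 606.5 and at 571.8 and 266.8. The Sfrp1 value of 0.25 is therefore the lowest of its 5 probe sets, and scaling on the hybridization controls turned it to -0.13. Sfrp2 read 414.1 at day 15 and 229.9 in undifferentiated cells (1.80-fold higher, log2 difference 0.81). Sfrp4 (83.5 and 130.6) and Sfrp5 (78.2 and 104.2) were lower at day 15, with log2 differences of -0.56 and -0.35, although the mean over probe sets put Sfrp5 at 0.073. Wif1 and Dkk4 lay under 35.6 on both arrays.

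The core transducers of beta-catenin signalling differed little apart from Dvl1 and Gsk3b. Those 2, called higher, were 33.3% of the 6 above the filter, against 16.5% of all genes. On the lower side 0 were called, against 8.41% of all genes. Ctnnb1, beta-catenin itself, read 8217 at day 15 and 8545 in undifferentiated cells (log2 difference -0.056), and its other probe sets gave -0.56 and -0.47. Axin1, the scaffold of the destruction complex, read 493.2 and 573.9, and Apc read 711.0 and 811.7, with Apc probe sets between -0.19 and 0.14. Dvl2, a Dishevelled protein that relays the signal from Frizzled, read 427.7 and 554.8. None of these 4 genes reached 2-fold on a probe set above the filter. Dvl1, another Dishevelled gene, read 1004.9 at day 15 and 465.8 in undifferentiated cells (2.16-fold higher), with a second probe set at 514.1 and 262.6. Gsk3b, the kinase that marks beta-catenin for degradation, read 827.5 and 378.7 (2.19-fold higher), while 3 more probe sets above the filter gave 1.03, 0.82 and 0.059 on the log2 scale. Both calls were lost with scaling on the hybridization controls, the Gsk3b call also with the mean over probe sets (0.39) and the Dvl1 call with suffixes a, s and x left out (0.93). Dvl3 lay under 35.6 on both arrays.

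Of the TCF/LEF factors, Tcf7l2 was at least 2-fold higher, while Tcf7l1 and Lef1 were slightly lower. With 3 genes above the filter, 1 higher call cannot be told from the 16.5% of all genes. Tcf7l2 read 229.1 at day 15 and 72.6 in undifferentiated cells (3.16-fold higher), and its second probe set above the filter gave 102.6 and 41.6, a log2 difference of 1.04. With the mean over all its probe sets the call was lost (0.90). Tcf7l1 read 903.7 and 1137.3, and its probe sets gave log2 differences of -0.33 and -0.31. Lef1, a factor that is itself induced by Wnt signals in many tissues, read 183.2 at day 15 and 239.1 in undifferentiated cells (log2 difference -0.36).

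**Figure D3:**
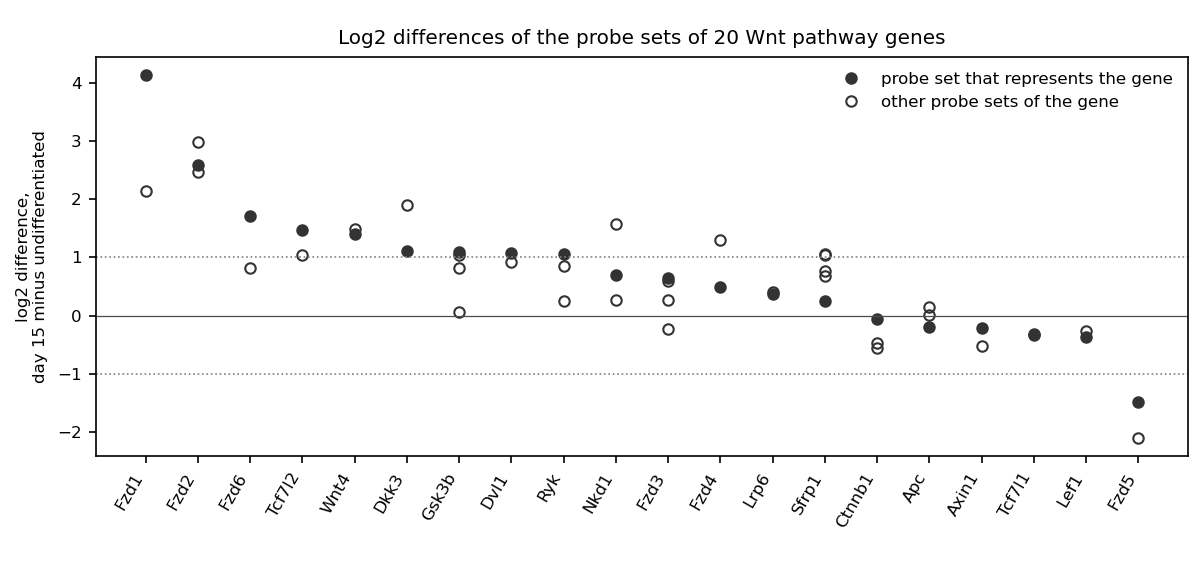
Log2 differences (day 15 minus undifferentiated) of every probe set above the filter for the 20 Wnt pathway genes with more than 1 such probe set. The filled point represents the gene and open points are its other probe sets, dotted lines mark 2-fold, and 7 genes have points on both sides of a 2-fold line.

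The feedback and target genes differed in direction. Of the 4 above the filter 1 was called lower and 0 higher, against 8.41% and 16.5% of all genes. Sp5, a transcription factor gene and direct Wnt target in the mouse embryo and in stem cells, read 37.7 at day 15 and 120.2 in undifferentiated cells, 3.19-fold lower on its only probe set, a call lost with a pseudocount of 64. Axin2, a widely used Wnt target and a negative feedback scaffold, read 81.2 and 90.2 (log2 difference -0.13). The antagonists of Dishevelled Nkd1 and Nkd2 were on the higher side, Nkd1 at 70.4 at day 15 and 37.3 in undifferentiated cells, and Nkd2 at 51.8 and 28.0. A further Nkd1 probe set read 100.2 and 22.8, past 2-fold, while the mean over probe sets put Nkd2 at -0.0025. The median log2 difference of these 4 genes was 0.25, and -0.056 with scaling on the hybridization controls.

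Because TCF/LEF factors bind the letters CTTTGAT, the 250 bases before annotated gene starts were searched for them on both strands. Of 45 Wnt pathway genes with such a window in the RefSeq promoter table (GRCm38.p6), 3 held the letters (Sp5, Wnt11 and Wnt5b), as did 3.72% of all 27025 genes with a window. Sp5 and Wnt11 are shown because they carry the letters and were called in opposite directions, and Wnt5b lay under 35.6 on both arrays (22.8 at day 15 and 2.60 in undifferentiated cells). The capitals mark the match, which begins 104 bases before the Sp5 start and 51 bases before the Wnt11 start, where it reads ATCAAAG on the gene's strand. The Sp5 window is chr2:70474673-70474922 (plus strand) and the Wnt11 window chr7:98834862-98835111 (plus strand), both upstream of the first exon. A match is a description of the letters, not of binding.
Sp5: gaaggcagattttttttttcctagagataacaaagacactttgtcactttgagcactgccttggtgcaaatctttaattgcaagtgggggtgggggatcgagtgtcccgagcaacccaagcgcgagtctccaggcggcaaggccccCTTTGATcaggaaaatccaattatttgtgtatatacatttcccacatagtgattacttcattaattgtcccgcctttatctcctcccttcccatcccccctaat
Wnt11: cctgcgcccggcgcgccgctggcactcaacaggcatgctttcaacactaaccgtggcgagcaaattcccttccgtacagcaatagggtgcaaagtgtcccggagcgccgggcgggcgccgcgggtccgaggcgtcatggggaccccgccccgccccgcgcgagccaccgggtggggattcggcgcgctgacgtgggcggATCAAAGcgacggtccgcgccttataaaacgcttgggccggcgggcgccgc

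The 4 lists of other Wnt pathway genes were also set with earlier results of these data known. Of 61 such genes, 59 were measured and 48 passed the filter. Of the 48, 13 passed 2-fold on the higher side and 4 on the lower, with a median log2 difference of 0.36. These are 27.1% and 8.33% of the 48, against 16.5% and 8.41% of all genes above the filter, so the lower share is that of the background. Secretion genes differed in direction. Wls, which carries Wnt proteins to the cell surface, read 4268 at day 15 and 78.6 in undifferentiated cells (54.3-fold higher). Porcn, the X-linked acyltransferase that adds the lipid to Wnts, read 380.9 and 811.2 (2.13-fold lower), and Notum, which removes that lipid, read 268.7 and 638.8 (2.38-fold lower). The membrane-bound Wnt inhibitor Apcdd1 (409.9 and 101.5) was 4.04-fold higher, and the X-linked glypican gene Gpc3 (1320.6 and 515.0) was 2.56-fold higher. In all, 3 of 7 secretion and extracellular genes above the filter were higher and 2 were lower, where 16.5% and 8.41% of all genes were.

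Planar polarity genes were higher or within 2-fold, and 5 of 13 passed 2-fold upward and 0 downward, against 16.5% and 8.41% of all genes. Prickle1 and Prickle2, cytoplasmic polarity proteins, read 646.3 and 353.2 at day 15, against 72.1 and 25.2 in undifferentiated cells, which was 8.96-fold and at least 9.92-fold higher. The formin genes Daam1 and Daam2, which link Dishevelled to actin, were 2.44-fold and at least 7.21-fold higher, and Invs was 2.47-fold higher. The Vangl and Celsr membrane polarity genes lay within 2-fold on the lower side, with Vangl2 at 176.9 at day 15 and 201.5 in undifferentiated cells and Celsr1 at 65.4 and 112.6.

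Among 18 genes of the destruction complex, its kinases and nuclear cofactors above the filter, 16 lay within 2-fold. Of all 11960 genes above the filter, 8979 did. The 1 higher and the 1 lower gene were 5.56% each, against 16.5% and 8.41% of all genes. Cxxc4, which binds Dishevelled, was at least 3.28-fold higher at day 15, and the co-repressor gene Tle4 (1216 and 3590) was 2.95-fold lower. Of 10 further target genes above the filter, 4 passed 2-fold on the higher side and 1 on the lower, against 16.5% and 8.41% of all genes. The adhesion receptor Cd44 read 3466 at day 15 and 30.1 in undifferentiated cells (at least 97.3-fold higher), Ccn4 2671 and 22.2 (at least 75.03-fold), and Bambi 1017 and 150.2 (6.77-fold). Cdx2 read 66.1 and 21.7 and met the call at a log2 difference of 1.12, although its fold was only bounded at 1.86-fold or more. Esrrb, a self-renewal gene repressed by Tcf7l1, read 1226 and 3178 (2.59-fold lower). Among the primitive streak targets, Evx1 read 84.9 at day 15 and 34.6 in undifferentiated cells (at least 2.38-fold higher), just short of the call at a log2 difference of 0.996. Eomes was level at 131.4 and 135.5, and Mixl1 lay under 35.6 on both arrays. Cd44 and Ccn4 are also made by fibroblasts, whose markers were higher at day 15, and their part in these differences was not tested.

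**Figure D4:**
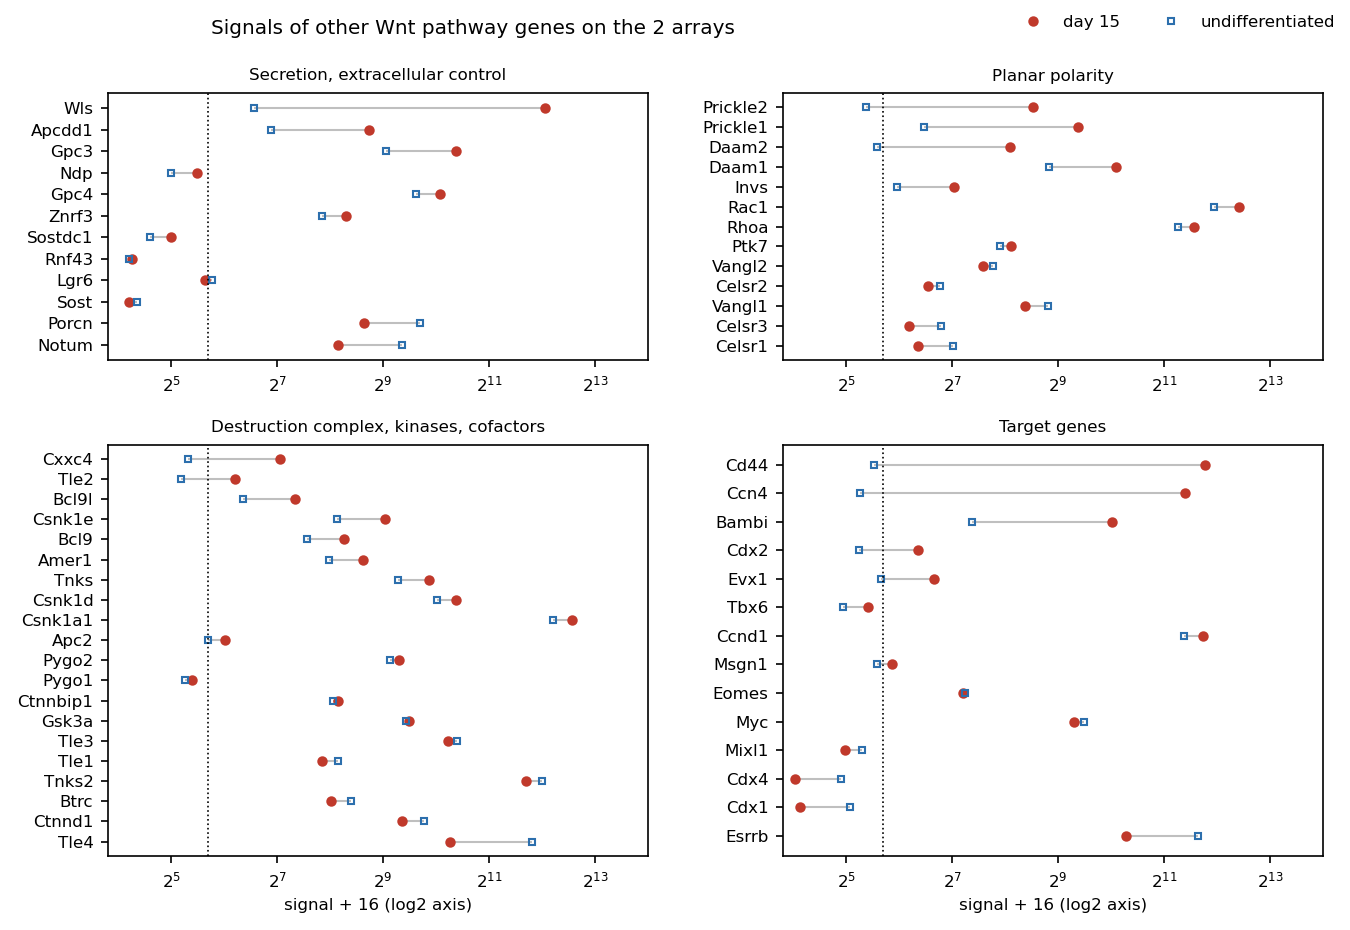
Signals of 59 other Wnt pathway genes at day 15 (filled circles) and in undifferentiated cells (open squares), 1 array each, on a log2 axis of signal + 16, ordered by the log2 difference within each list. The dotted line marks the bacterial controls without target (35.6), and Cd44, Ccn4 and Wls show the widest gaps.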

How the data were processed

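The deposited values are linear signal intensity, a number for each of 45101 probe sets per array, and both arrays had a mean of 250.0 after trimming 2% from each tail, so the authors had already scaled the intensity values. The software that summarised probes is not given in the sources used here, and detection calls were not used. The 64 control probe sets were set aside. Of the other 45037, 34945 named 1 gene through the platform annotation, 932 named several and were not used, and 9160 were not listed there. Symbols were updated through the RefSeq gene table (GRCm38.p6) (34741 matched on gene identifier, 143 on symbol, 61 unplaced). The array files name no build, so coordinates are given only for promoter windows.

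Values were taken to log2(signal + 16). The filter kept genes whose mean log2 value reached the all-probe-set median (a signal near 36.5). The number of arrays limits the precision: the 18 hybridization controls had a log2 ratio SD of 0.11, and probe sets of 1 gene an SD of 0.53, neither of which includes culture variation. Genes were named by a fixed rule: members past 2-fold above the filter, all members above it among co-receptors, transducers, TCF/LEF and feedback genes, members with disagreeing probe sets, and other pathway genes past 2-fold. Others named (such as Wnt2, Sfrp1, Vangl2 and Eomes) were chosen after their values were seen. The members and lists were chosen with earlier results of these data known. The size call was tried on simulated data with changes well past 2-fold planted in brighter probe sets. It therefore does not cover calls near 2-fold or on dim probe sets. Alternatives were no filter, a filter at the 75th percentile, pseudocounts of 1 and 64, the mean over probe sets, omission of probe sets with suffix a, s or x, quantile normalization and hybridization control scaling; raising signals to the control bound was added after seeing the data. Python 3.11.15, pandas 2.3.3 and numpy 2.4.6 were used.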

Additional observations from a re-analysis of the deposited data

How the results depend on the processing

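The count of 17 higher genes became 9 with the mean over probe sets, 11 with hybridization control scaling and 6 with a 75th percentile filter, where fewer genes were tested, and were between 14 and 21 under the other 6 alternatives. The share of these genes stayed above that of all genes in each of the 9 alternatives. The 2 lower genes became 1 with the 75th percentile filter and with a pseudocount of 64. They became 3 with a pseudocount of 1 and with signals raised to the control bound. With quantile normalization and with hybridization control scaling they became 4. With a pseudocount of 1 the log2 difference of Wnt9a turned to -0.37, because another probe set then represents it. The median of all Wnt pathway genes kept its sign under all 9, between 0.24 and 0.67. The ligand median was 0.077 without a filter, the Frizzled median 1.71 with the 75th percentile filter, and the feedback and target median -0.28 with the mean over probe sets. The R-spondin and Lgr median of 0.84 became 0.15 without a filter, -0.23 with the 75th percentile filter and -0.16 with the mean over probe sets. The 0.84 covers 2 genes, Rspo3 and Lgr4, and the values of -0.23 and -0.16 are those of Lgr4 alone. For the other pathway genes, 13 higher became 7 with the 75th percentile filter and 9 with hybridization control scaling. With that scaling their median of 0.36 became 0.00023, where the median of all genes was -0.36. Their 4 lower became 2 when suffixes a, s and x were left out. Of 281 single-gene values, 11 changed sign. No paired analysis was possible because each condition had 1 array. Signals under 35.6 could not be told from background.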

Other observations

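Several Wnt ligand genes are direct neighbours among the protein-coding genes of the RefSeq table (GRCm38.p6), and their values are given by pair. Wnt9a and Wnt3a are adjacent on chromosome 11, with Wnt9a at 188.2 at day 15 and 1.10 in undifferentiated cells on the probe set that represents it, and Wnt3a under 35.6 on both arrays. Wnt10b and Wnt1 are adjacent on chromosome 15, where Wnt10b exceeded 35.6 at day 15 alone (56.8 and 5.50) and Wnt1 in undifferentiated cells alone (28.4 at day 15 and 40.7 in undifferentiated cells). Wnt6 and Wnt10a on chromosome 1 both passed the filter within 2-fold, with log2 differences of -0.35 and 0.077, and Wnt9b and Wnt3, also on chromosome 11, both lay under 35.6 on both arrays.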
